A study of Bos taurus with 8 samples.

Results

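The casein gene cluster of cattle was examined in RNA-Seq libraries of 8 tissues. It was taken as the loci with an identifier that overlap a fixed window of 320 kb on chromosome 6 (UMD3.1), which gave 9 of the 24886 such loci in the table. They run from 87141556 to 87469068. Of the 9 loci, 6 lay wholly within the window, and 3 shared a merged region that ran past its end and holds the position of kappa casein. Every level below is an FPKM, a fragment count scaled for transcript length and library size.

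The libraries came from mammary gland (parenchyma), uterus (intercaruncular), whole testes, frontal cortex, nucleated blood cells, ileum, abomasum (the glandular stomach) and rumen (a forestomach), with 1 library for each tissue. The study's list of tissues gave juvenile females as the source of the mammary parenchyma, the cortex, the abomasum and the ileum, and a male fetus as the source of the rumen. It gave adults for the testes, uterus and blood cells. Whether the RNA came from the same animals is not given in the sources used here. A lactating gland was part of the study's methylation set, but it has no library among these 8. Because nothing was replicated, no difference between tissues could be tested, and each includes any difference between animals, age and sex. In bulk tissue, fewer cells of a type and less RNA per cell cannot be told apart.

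Caseins are the main proteins of milk. They carry calcium and phosphate to the young in particles called micelles. The alpha-s1, beta and alpha-s2 caseins (CSN1S1, CSN2 and CSN1S2) bind calcium through clusters of phosphorylated serines, and kappa casein (CSN3) coats the particle and keeps it in solution. The genes are read in the secretory epithelium of the mammary gland under prolactin, glucocorticoid and contact with the surrounding matrix, with STAT5 and ELF5 among the factors. They share their chromosomal region with genes for saliva and tooth proteins of the same family of secreted calcium-binding phosphoproteins.

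The table holds transcript identifiers without gene symbols, so each locus was named by comparison with the RefSeq genes of assembly ARS-UCD2.0. The span of ENSBTAT00000010119 was 17541 bases against 17538 for CSN1S1, and that of ENSBTAT00000003409 was 8524 bases against 8522 for CSN2. ENSBTAT00000006590 spanned 18480 bases against 18482 for CSN1S2, and ENSBTAT00000039572 spanned 8853 bases, as did ODAM, a protein of enamel-forming cells. The start of ENSBTAT00000063007 lay 10234 bases from that of CSN2, where RefSeq places HSTN at 10233. Its end matched HSTN within 2 bases of its distance from CSN1S2. For ENSBTAT00000034366 the end matched that of STATH, a salivary protein that keeps calcium phosphate in solution, within 3 bases, while the start differed by 98 bases, so this name is less sure.

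The name CSN3 rests on position and, among loci with the same limits, on the highest FPKM in mammary gland. The mammary level of this locus thus gives no support for its name. ENSBTAT00000028685 stands at a merged region of 106280 bases that begins 81853 bases after the end of CSN1S2 and ends 188132 bases after it. By distance from CSN1S2, RefSeq places 2 protein-coding genes in it, CSN3 (97316 to 110372 bases) and CABS1 (186024 to 188139 bases), a calcium-binding protein of sperm cells. The same identifier stands at a second locus with the same limits, which is kept apart below, and another locus there, ENSBTAT00000018127, was left without a name. How reads were shared among these overlapping loci is uncertain.

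The scaled depth, recovered from the values themselves, was lowest in mammary gland, with 6059000 reads, and highest in rumen, with 15583000. For a transcript of 1000 bases, 1 FPKM then stood for 4.404 to 11.3 reads, and a floor of 3 reads, the limit that a count of 0 allows, for 0.265 to 0.681 FPKM. Transcript lengths are not in the table, so read numbers below assume 1000 bases. Their 95% Poisson intervals cover counting error only.

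The 4 caseins were abundant in the mammary library and at most a few FPKM elsewhere. In mammary gland, 5 of the 9 loci reached an FPKM of at least 1, against 51.2% of all genes. The same 5 were at least 5 times higher in mammary gland than in the next tissue on the scale of FPKM + 1, against 0.217% of all genes in the table. These were CSN1S1, CSN2, HSTN, CSN1S2 and CSN3. They were also the 5 loci with their highest level in mammary gland, out of 7 loci that reached 1 FPKM in any tissue. Of all genes reaching 1 FPKM, 4.77% had their highest level there. The remaining 4 of the 9 loci were listed at 0 in mammary gland.

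CSN3, the micelle-coating casein, had the highest level of the cluster. It lies on chromosome 6 within 87362789 to 87469068. Its FPKM was 3166 in mammary gland, 5.403 in whole testes, 2.33 in rumen, 1.52 in ileum, 0.807 in frontal cortex and 0.135 in uterus, and it was listed at 0 in abomasum and nucleated blood cells. The uterus value stood for about 0.998 reads (0.0251 to 5.57) and is under the floor of that library. On the log2(FPKM + 1) scale, mammary gland was 8.95 above whole testes, the next tissue. The difference was 7.59 with both loci of the identifier summed.

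CSN2, beta casein (87179502 to 87188025), had an FPKM of 2912 in mammary gland, 3.99 in whole testes, 2.70 in rumen, 1.38 in ileum and 1.37 in frontal cortex. It was listed at 0 in uterus, abomasum and nucleated blood cells. Mammary gland was again followed by whole testes, at a distance of 9.19 on the log2 scale, the largest of the 4 caseins.

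CSN1S1, alpha-s1 casein (87141556 to 87159096), had an FPKM of 2135 in mammary gland, 4.82 in whole testes, 3.61 in rumen, 2.81 in frontal cortex and 0.665 in ileum, and was listed at 0 in the same 3 tissues as CSN2. The difference between mammary gland and whole testes was 8.52 on the log2 scale.

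CSN1S2, alpha-s2 casein (87262457 to 87280936), was the least abundant of the 4 in mammary gland. Its FPKM was 729.5 in mammary gland, 2.07 in rumen, 1.67 in frontal cortex, 0.985 in whole testes and 0.635 in ileum, with 0 again listed for uterus, abomasum and nucleated blood cells. Here rumen, not testes, came next, and mammary gland was 7.89 above it on the log2 scale.

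**Figure D1:**
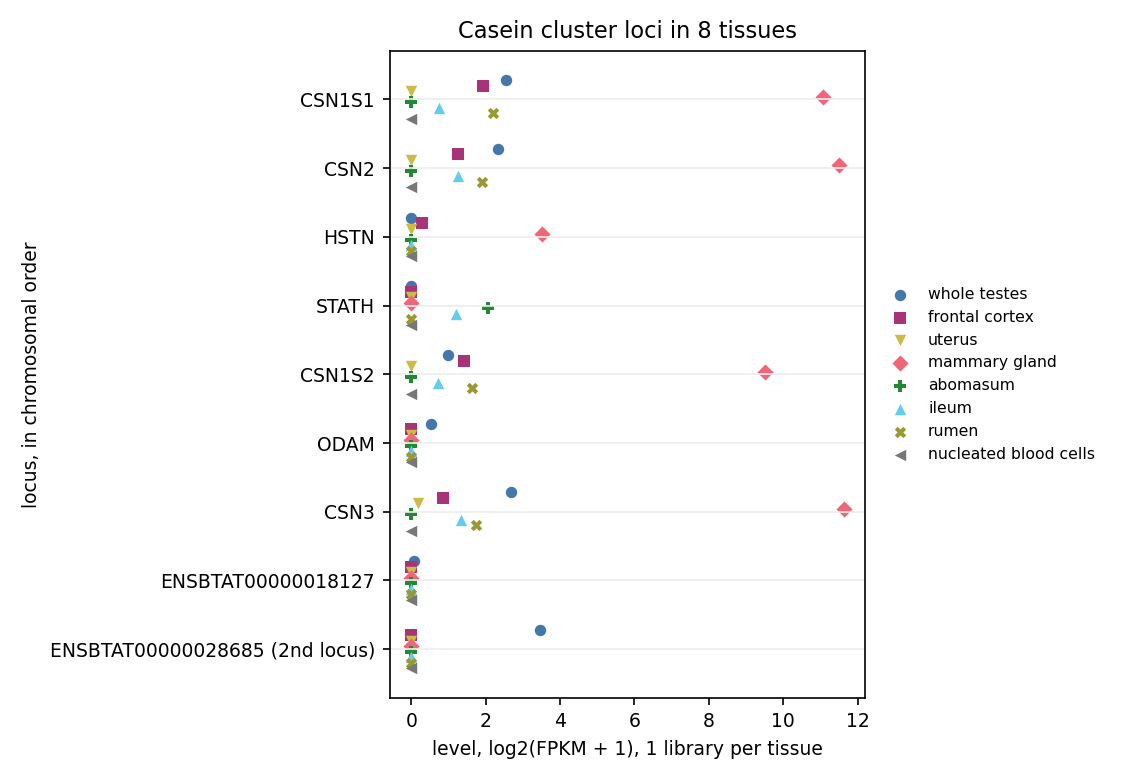
Level of each of the 9 loci, as log2(FPKM + 1), in the 8 tissues, with 1 point per library and loci in chromosomal order. The 4 caseins and HSTN have their highest point in mammary gland, STATH has it in abomasum, and the last 2 loci and ODAM have it in whole testes.

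Within the mammary library the 4 caseins differed in level beyond counting error. The order of FPKM was CSN3, CSN2, CSN1S1 and CSN1S2, with 95% counting intervals of 3114 to 3219, 2862 to 2963, 2092 to 2179 and 704.5 to 755.2, which do not overlap. Whether they would differ beyond the spread between animals cannot be said from 1 library. Among all genes of that library, CSN3 stood at rank 24, CSN2 at 29, CSN1S1 at 46 and CSN1S2 at 122. The median was 11.1 FPKM over the 12740 genes that reached 1 FPKM in mammary gland. The whole cluster held 1.31% of the summed FPKM of all genes in mammary gland and 0.00312% in whole testes, the next tissue.

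**Figure D2:**
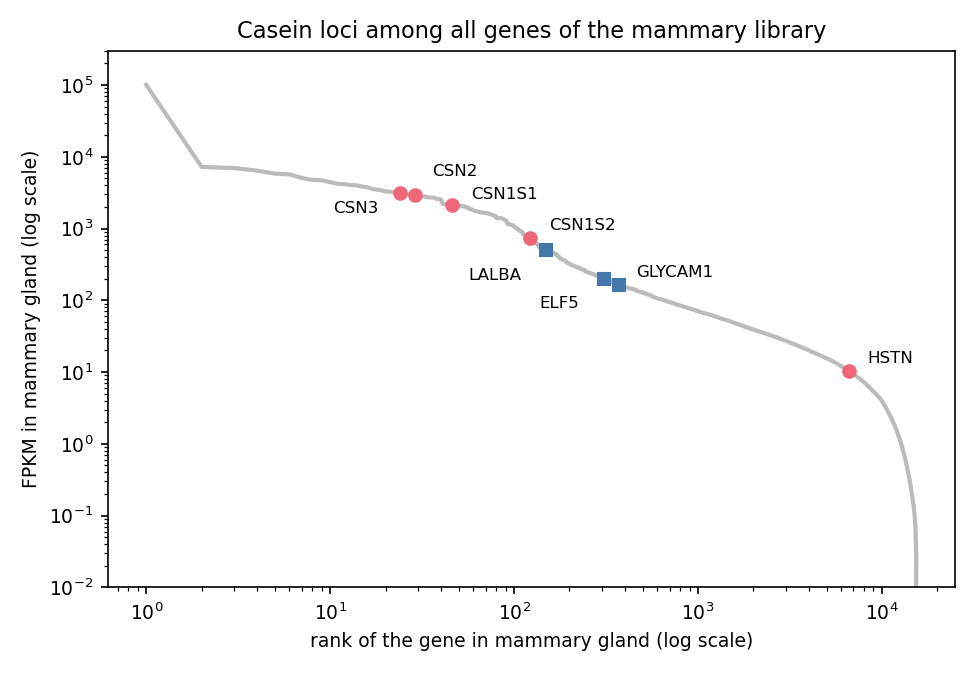
FPKM in mammary gland against the rank of the gene in that library, both on log scales. The grey line is all genes above 0, red circles are cluster loci above 0 and blue squares are LALBA, ELF5 and GLYCAM1. The 4 caseins lie between ranks 24 and 122, and HSTN at rank 6617.

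The neighbours among the caseins did not share their level. HSTN (87189736 to 87204439), whose start lies next to the CSN2 locus, had an FPKM of 10.4 in mammary gland and 0.232 in frontal cortex, and 0 was listed for the remaining 6. The mammary value stood for about 45.8 reads (33.5 to 61.1), and the cortex value lay under the floor of 0.443 FPKM. STATH (87227480 to 87239005), between HSTN and CSN1S2, was listed at 0 in mammary gland. It had an FPKM of 3.21 in abomasum and 1.28 in ileum and was listed at 0 in the remaining tissues. With about 31.3 reads (21.3 to 44.4) in abomasum and 7.02 (2.83 to 14.5) in ileum, both values were above their floors. In abomasum, STATH was the single locus of the 9 with an FPKM of at least 1, against 51.0% of all genes.

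Beyond CSN1S2, the loci above 0 in 1 tissue had it in whole testes. ODAM (87327028 to 87335880) had an FPKM of 0.456 there, about 3.43 reads, and was listed at 0 elsewhere. ENSBTAT00000018127 had an FPKM of 0.0571 in whole testes, under the floor of 0.399. The second locus of ENSBTAT00000028685 had an FPKM of 10.04 in whole testes, while mammary gland and the rest were listed at 0. Both loci of this identifier were thus above 0 in whole testes. The one named CSN3 had its highest level, 3166, in mammary gland, the value by which it was named.

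**Figure D3:**
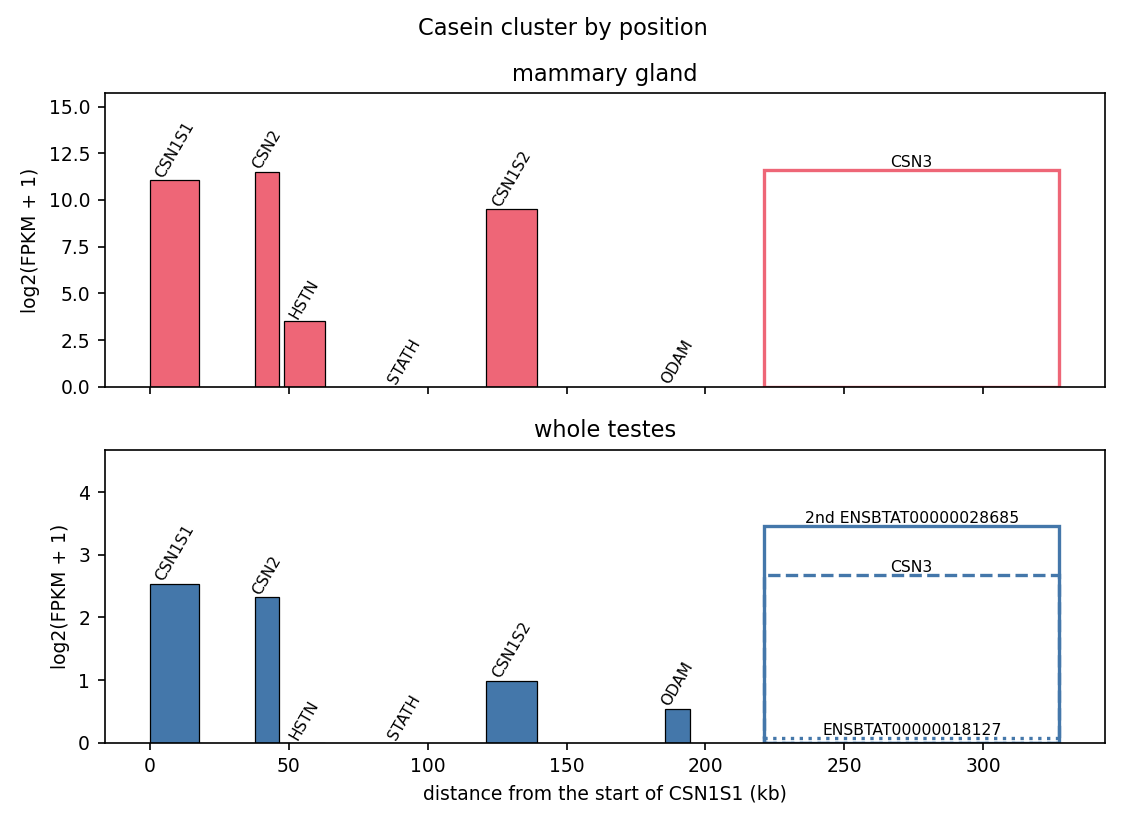
Level of each locus, as log2(FPKM + 1), by distance in kb from the start of CSN1S1, in mammary gland (top) and whole testes (bottom). Bar widths are locus spans, and open boxes are loci of the merged region that share the same limits. In mammary gland STATH and ODAM at 0 lie between the caseins, and the vertical axes differ between panels.

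Loci on both sides of the cluster were also described. Windows of 320 kb on each side held 4 loci before and 5 after the cluster. Of these, 0 reached an FPKM of 1 in mammary gland, against 5 of the 9 cluster loci and 51.2% of all genes. On the side of CSN1S1, ENSBTAT00000001650 had an FPKM of 28.0 in rumen, 23.8 in abomasum and 0.561 in mammary gland. All 4 caseins were listed at 0 in abomasum, but had an FPKM of 2.07 to 3.61 in rumen. The first locus after the merged region, ENSBTAT00000026444, had an FPKM of 167.4 in whole testes, with 0 listed elsewhere.

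Low casein levels in tissues other than mammary gland were then described, since the caseins are known as milk proteins. In whole testes, 4 of the 9 loci had an FPKM of at least 1, against 58.2% of all genes, and 3 of these were caseins. The count was 4 in rumen (48.4% of all genes), all caseins, and 3 in frontal cortex (51.7%), all caseins. Ileum had 3 such loci (52.9%), of which 2 were caseins. Uterus (51.8%) and nucleated blood cells (45.0%) had 0.

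Most of these low values rested on more reads than the floor. CSN1S1 stood for about 36.2 reads (25.4 to 50.1) in whole testes, 40.9 (29.3 to 55.5) in rumen and 19.0 (11.5 to 29.7) in frontal cortex. In ileum the 4 caseins stood for 3.47 to 8.32 reads. Uterus, abomasum and nucleated blood cells, where 3 or 4 caseins were listed at 0, had scaled depths of 10163000, 13426000 and 12073000 reads. The depths were 7522000 in ileum, 9307000 in frontal cortex, 10342000 in whole testes and 15583000 in rumen, where all 4 caseins were above 0. The part of depth in the values listed at 0 was not tested.

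The ratio of mammary gland to each tissue gives the size of these traces, with the 95% counting interval of the lower value in parentheses. In whole testes it was 443 for CSN1S1 (320 to 632), 729 for CSN2 (511 to 1081), 741 for CSN1S2 (366 to 1787) and 586 for CSN3 (431 to 818). The intervals overlap in all 6 pairs of caseins, which does not show that the ratios are alike. With both loci of the CSN3 identifier summed, a choice made after seeing the data, the FPKM was 15.4 in whole testes. The ratio was then 205 (171 to 248), apart from those of the 3 other caseins. The merged region also holds the position of CABS1 of sperm cells, and whether the sum is CSN3 alone was not tested. In rumen the ratio was 352 for CSN1S2 (236 to 553), 592 for CSN1S1 (436 to 825), 1077 for CSN2 (757 to 1589) and 1358 for CSN3 (929 to 2071). There 3 of the 6 pairs had intervals that do not overlap, CSN1S2 with CSN2, CSN1S2 with CSN3, and CSN1S1 with CSN3. Frontal cortex had 438 for CSN1S2 (246 to 869), 759 for CSN1S1 (486 to 1261), 2132 for CSN2 (1132 to 4604) and 3924 for CSN3 (1740 to 11368), and the same 3 pairs were apart. In ileum the ratios were 1149 to 3213, with intervals that overlap. For the 11 values listed at 0, mammary gland was at least 1796-fold to at least 10299-fold higher, set against a floor of 3 reads per library on 1000 bases.

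**Figure D4:**
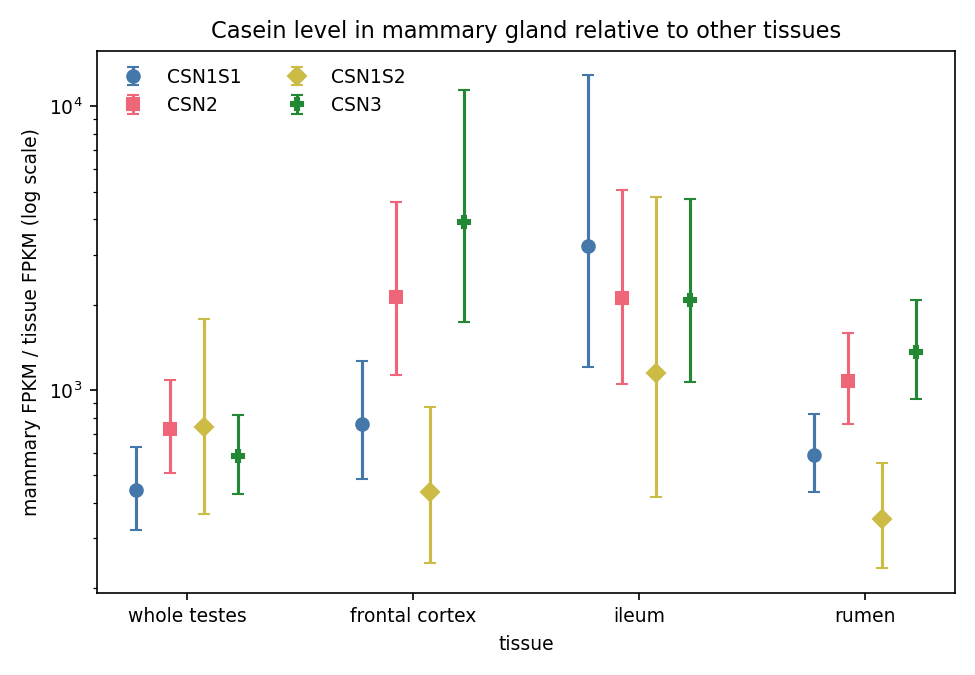
Ratio of the FPKM in mammary gland to that in each of the 4 other tissues where all 4 caseins were above 0, on a log scale. Points are ratios and bars are 95% Poisson counting intervals of the lower value for a transcript of 1000 bases, with no replicate error. In rumen and frontal cortex CSN1S2 has the lowest ratio and CSN3 the highest.

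The make-up of the casein transcripts was compared in the same way, as the share of each casein in their summed FPKM. In mammary gland the sum was 8943, with 35.4% from CSN3, 32.6% from CSN2, 23.9% from CSN1S1 and 8.16% from CSN1S2. Whole testes, with a sum of 15.2, had 35.5% CSN3, 26.3% CSN2, 31.7% CSN1S1 and 6.48% CSN1S2. The share of CSN3 was 61.2% with both loci of its identifier summed. Both values come from the merged region that also holds the position of CABS1 of sperm cells, so the part of CSN3 in them is uncertain. In ileum (sum 4.198) the shares of CSN3, CSN2, CSN1S1 and CSN1S2 were 36.3%, 32.8%, 15.8% and 15.1%. Rumen (sum 10.7) had 21.8% CSN3 and 19.3% CSN1S2, and frontal cortex (sum 6.65) had 12.1% CSN3 and 25.05% CSN1S2. CSN1S1 was the largest share in rumen (33.7%) and in frontal cortex (42.3%).

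**Figure D5:**
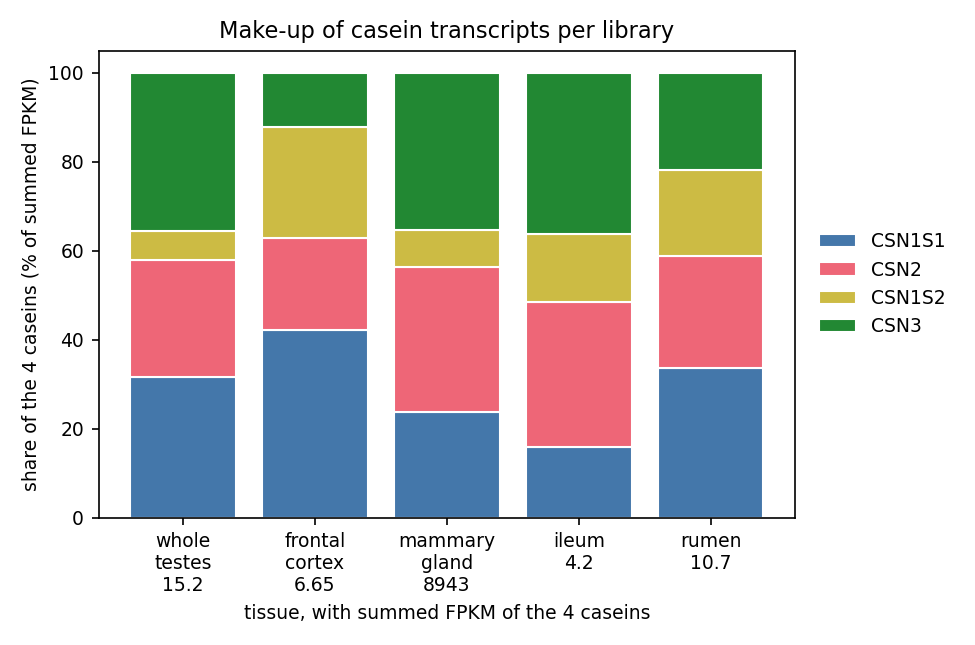
Share of each casein, in percent, of the summed FPKM of the 4 caseins in the 5 libraries where all 4 were above 0, with the sum under each tissue. The share of CSN3 is 35.4% in mammary gland and 12.1% in frontal cortex.

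Across the 8 tissues the 4 caseins followed each other closely. Pearson r of log2(FPKM + 1) was 0.985 to 0.998 over the 6 pairs of caseins, a description that rests on 8 points and largely on mammary gland. Without that library the range was 0.716 to 0.972. The tau index, which is 0 for an even level and 1 for a single tissue, was 0.904 for CSN1S1, 0.917 for CSN2, 0.929 for CSN1S2 and 0.917 for CSN3, with a median of 0.929 over the 9 loci. The median over the loci includes ODAM and ENSBTAT00000018127, each with a tau of 1 from whole testes alone, at 0.456 and 0.0571 FPKM. The median over the 19004 genes above 0 in any tissue was 0.487. CSN1S1, CSN2 and CSN1S2 were above 0 in exactly mammary gland, whole testes, frontal cortex, ileum and rumen, a set of tissues shared by 21 genes (0.0844% of all). Of the 54 genes at least 5 times higher in mammary gland than in the next tissue, 5 had this set. The 3 caseins, from which the set was taken, are counted among both the 21 and the 5, which leaves 18 and 2 genes outside the cluster.

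Outside the cluster, the loci with the pattern most like that of each casein were sought among the 17484 genes that reached 1 FPKM in any tissue. For 3 caseins the 2 closest were ENSBTAT00000017854 on chromosome 5 (25595262 to 25598162) and ENSBTAT00000014437 on chromosome 20 (39073246 to 39137480), with r of 0.987 to 0.998. For CSN3 the closest was also ENSBTAT00000017854, with r of 0.9898, followed by ENSBTAT00000002631 on chromosome 3 (114309328 to 114336917), with r of 0.987. These values rest largely on mammary gland. Without it, r was 0.839 to 0.951 for ENSBTAT00000017854, 0.832 to 0.959 for ENSBTAT00000014437 and 0.744 for ENSBTAT00000002631. Outside mammary gland, ENSBTAT00000014437 was above the floor of 3 reads in rumen alone and ENSBTAT00000002631 in no tissue, so nothing is read from their r without it. The span of ENSBTAT00000017854 matched that of GLYCAM1, a mucin-like protein of milk, within 4 bases. Its FPKM was 163.7 in mammary gland, 1.03 in rumen, 0.632 in whole testes, 0.469 in frontal cortex and 0.292 in ileum, and it was listed at 0 in uterus, abomasum and nucleated blood cells, as were 3 of the caseins. The ileum value is under the floor of 0.549 in that library and the cortex value just above its floor of 0.443, which limits the r without mammary gland for this locus too. ENSBTAT00000014437 had an FPKM of 3.36 in mammary gland and at most 0.352 elsewhere. ENSBTAT00000002631 had 1.63 in mammary gland and 0.204 in whole testes, and was listed at 0 elsewhere. Both of these loci thus reached 1 FPKM through mammary gland alone.

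Genes that act with the caseins could be placed by span for 8 of 47 symbols of the lists of milk, regulator, neighbour and cell type genes, and 39 were not analysed here. Of the milk proteins, LALBA, the alpha-lactalbumin of lactose synthesis, matched a locus of the same span of 2022 bases. It had an FPKM of 496.2 in mammary gland, 62.0 in rumen, 40.2 in frontal cortex, 0.468 in ileum, 0.371 in uterus and 0.332 in whole testes, and 0 in abomasum and blood cells. The values in ileum, uterus and whole testes were under the floors of those libraries. LALBA had a higher FPKM than each of the 4 caseins in rumen and frontal cortex. Among the regulators, ELF5, a factor of milk-secreting cells, had an FPKM of 200.8 in mammary gland, 7.80 in rumen and 1.47 in whole testes, and at most 0.156 in the other tissues. SOCS2, an inhibitor of cytokine signalling downstream of prolactin, was less uneven, with 19.5 in mammary gland and 1.57 to 14.9 elsewhere.

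The mammary label was set beside the few cell type markers that could be placed. ELF5, given above, was highest in mammary gland. KRT18, a keratin of simple epithelium, was highest in abomasum, with an FPKM of 813.2, and had 150.6 in mammary gland, 84.8 in uterus, 72.8 in ileum and 0.250 to 4.49 in the remaining 4 tissues. LEP of fat cells had 0.126 in mammary gland, under the floor of 0.681, and MZB1 of plasma cells had 39.2 there and 0.230 to 57.2 elsewhere. Of the neighbour list, AMBN, an enamel protein, had at most 0.245 in any tissue and was listed at 0 in mammary gland. No stroma marker and no milk fat globule gene could be placed, so the share of each cell type in the mammary library was not tested.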

How the data were processed

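RNA-Seq of 8 cattle tissues, 1 library each, was used, with tissues taken from the labels. The authors aligned filtered single-end reads to UMD3.1 with TopHat2 2.0.13 and derived FPKM values with Cufflinks at default parameters; the annotation is not given in the sources used here. The deposited table also holds the authors' fold changes, scores, p-values and q-values between tissues, which were not used. None of the 24886 loci with an identifier matched a symbol (0 matches), so names were set by spans within 10 bases and by distances between gene ends. The name CSN3 was given to the locus of the merged region with the highest FPKM in mammary gland. Symbols of other list genes, added after the data had been seen, required 1 match by span (10 bases or 0.1%) whose shift between assemblies was within 20000 bases of that of a neighbour matched by span within 3000000 bases. Loci were named in the text if they were members, among the 2 closest patterns, or list genes with a symbol; ENSBTAT00000001650 and ENSBTAT00000026444 were chosen after their values were seen. Members and lists were chosen with earlier results of these data known.

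Scaled depth was recovered from loci of 88 to 130 bases without an identifier, using fragments of mean 200 and SD 80 bases and at least 87 bases. It was the smallest depth that gave whole reads (within 0.03) at 95% of them. The floor was 3 reads, and the reads carry no molecular identifiers. Log2 values used a pseudocount of 1, which understates differences of low genes. No estimate was marked as failed for any of the 9 loci. Depth recovery, the call of higher loci and tau were tested on simulated or altered values, while naming, floors and intervals were not. The simulated depths used more short loci than the 36 that mammary gland had. Python 3.11.15 with numpy 2.4.6, pandas 2.3.3 and scipy 1.17.1 was used. Alternatives covered thresholds, pseudocount, rescaling, window and tissues left out.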

Additional observations from a re-analysis of the deposited data

Results flagged for a closer look

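Loci without an identifier were outside the comparisons above, and 3 of them in the window stood above the floor of 3 reads. The first lies 11013 bases before CSN1S1 and spans 784 bases. It had an FPKM of 62.7 in whole testes and 10.04 to 21.0 in the 7 other tissues, so it was above 0 in uterus, abomasum and nucleated blood cells, where CSN1S1 was listed at 0. The second starts 1165 bases after the end of CSN1S2, spans 10853 bases, and had an FPKM of 17.7 in whole testes and 0 elsewhere. The third stands at the merged region of CSN3 and had an FPKM of 4.94 in mammary gland and 0 elsewhere. No control tissue was defined, and each value comes from 1 library.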

How the results depend on the processing

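Counts and shares were called stable within 1.5 times the reported value, a level within its counting interval and a median tau within the SD over the loci (0.0428). Of 91 alternative values, 68 were stable. The count of loci higher in mammary gland was 5 under 3 of its 4 alternatives and 4 with a fold of at least 10. There HSTN, 9.25 times the next tissue on the scale of FPKM + 1, drops out. Counts of loci at an FPKM of at least 1 moved most often, though the count in mammary gland was stable. With an FPKM of at least 5 the count was 2 in testes and 0 in cortex, abomasum, ileum and rumen, and it was 5 in mammary gland. Any FPKM above 0 gave 7 loci in testes, 5 in cortex, 1 in uterus and 5 in ileum, and an FPKM of at least 0.5 gave 5 in ileum. All loci of the window, also those without an identifier, gave 1 in uterus, 2 in abomasum and 1 in blood cells. Loci wholly within the window, a choice made after seeing the data, gave 2 in testes, because the merged region drops out.

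With a pseudocount of 0.1, mammary gland was 8.39 above the next tissue for CSN1S2 on the log2 scale, and the median tau of the 4 caseins was 0.824. With both loci of the CSN3 identifier summed, also a choice made after seeing the data, mammary gland was 7.59 above testes. The ratio was then 205, because the second locus has its level in testes. Without mammary gland the median tau of the 4 caseins was 0.683. The median tau over all 9 loci was 0.986 without abomasum and the same without ileum, because STATH is above 0 in those tissues alone. In the window before the cluster, 1 locus had an FPKM of at least 0.5 in mammary gland. Transcript length with no correction gave 12938 reads for CSN1S1 in mammary gland against 9404 with it. No paired analysis was possible because no tissue has a second library and no result comes from a test. In ileum the 4 caseins stood for 3.47 to 8.32 reads, and the part of depth in those values was not tested.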
